A study of Mus musculus with 5 samples.

Results

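The 10 genes described here encode the Rag GTPases (Rraga, Rragb, Rragc and Rragd), the GATOR1 complex (Nprl2, Nprl3 and Depdc5) and folliculin with its partners (Flcn, Fnip1 and Fnip2). They were chosen by function, out of 22180 genes on the arrays, with the differences between the groups already known, so those differences are given as a description and carry no test of their own. Each was read from its brightest probe set carrying a single gene symbol, and each of the 10 had exactly 1 such probe set. A further probe set that carries the symbol of Nprl3 together with another gene's was not used.

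Rag GTPases sit on the lysosome as heterodimers, RagA or RagB paired with RagC or RagD, and when amino acids are plentiful they bring the growth kinase complex mTORC1 to that membrane. GATOR1 turns the signal off by stimulating GTP hydrolysis on RagA and RagB. Folliculin, bound to FNIP1 or FNIP2, acts on the other subunit of the dimer: it stimulates GTP hydrolysis on RagC and RagD, which lets mTORC1 hold the lysosomal transcription factors TFEB and TFE3 in the cytoplasm.

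Expression was measured on 1-colour arrays in bone marrow cells of C57BL/6 mice that were depleted of CD45-bearing leukocytes and then selected on magnetic beads for the erythroid antigen Ter119. There were 3 arrays of Polg mutant cells, from mice homozygous (mt/mt) for the Polgtm1Lrsn allele of the mitochondrial DNA polymerase gene, and 2 arrays of WT cells (Polgtm1Lrsn wt/wt). Both groups came from the same mating scheme, in which both parents were Atg7 flox/flox and PolG wt/mt and the father alone carried Epo-cre (ki/wt). The sources used here do not state which offspring inherited Epo-cre or how old the mice were, and the series' design text says that they had been phlebotomized. Separate animals are not named for the arrays, so the spread behind each error and p-value is that between these arrays and may be technical.

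The values are log2 expression levels, with array medians from 5.10 to 5.13. Levels of different probe sets are not comparable with each other, and signal over background was not known. As a check of the labelled cell type, the 8 erythroid markers measured of 15 listed, which include the band 3 gene Slc4a1 and the erythropoietin receptor gene Epor, averaged 11.69 to 11.80 on the Polg mutant arrays and 12.14 and 11.95 on the WT arrays. In 7 of the 8 all Polg mutant arrays were below both WT arrays, against 9.73% of all genes. The differences over the 8 ran from -0.65 to -0.12. Ptprc, the gene of CD45, read 7.67, 7.40 and 6.06 on the Polg mutant arrays and 7.13 and 6.43 on the WT arrays. The mean of 15 neutrophil markers was 8.40, 8.99 and 7.20 on the Polg mutant arrays against 7.99 and 7.08 on the WT arrays, so granulocyte transcripts were not at equal levels on all arrays. Macrophage, B cell, megakaryocyte and T and NK cell marker means lay between 4.79 and 6.76 on the Polg mutant arrays and between 4.92 and 7.37 on the WT arrays. In bulk RNA such as this, fewer cells of a type and less RNA per cell cannot be told apart. Polg itself read 6.97 on every array, which does not check the labels, since the mutant allele is not a deletion of the gene.

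The 250 bases before the transcription start are shown for Rragd and for Rragc, its closest paralog, because Rragd had the widest difference of the 10 genes. RefSeq promoter entries on build GRCm38.p6 were found for all 10 genes. The stretch for Rragd is chr4:32982748-32982997 and that for Rragc chr4:123917183-123917432, both on the plus strand and printed 5′ to 3′. Capitals mark the E-box CACGTG, the core sequence bound by TFEB, TFE3 and other basic helix-loop-helix factors.
Rragd: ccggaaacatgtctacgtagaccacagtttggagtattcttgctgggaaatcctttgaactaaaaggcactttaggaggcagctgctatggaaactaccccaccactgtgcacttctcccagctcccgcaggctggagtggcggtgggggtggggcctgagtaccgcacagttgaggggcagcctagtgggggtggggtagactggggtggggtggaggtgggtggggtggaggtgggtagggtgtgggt
Rragc: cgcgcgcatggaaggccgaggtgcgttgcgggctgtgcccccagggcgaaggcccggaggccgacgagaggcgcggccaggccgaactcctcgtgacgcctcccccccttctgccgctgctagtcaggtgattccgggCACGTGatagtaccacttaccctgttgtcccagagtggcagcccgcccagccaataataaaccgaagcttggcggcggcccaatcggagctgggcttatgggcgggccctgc
Rragc has 1 E-box, which begins 112 bases before the start, and Rragd has none in this window. The same 6 letters, which read alike on both strands, occur 2 times in the window of Rragb and 1 time in that of Fnip1. They begin 127 and 36 bases before the start in Rragb and 75 in Fnip1. That start is the one of the promoter entry, which for Rragb and Fnip1 lies inside the RefSeq span of the gene. Windows of this length hold the motif in 6.02% of all 32851 RefSeq promoter entries. In Rragb, Rragc and Fnip1 at least 1 of the E-boxes lies in the longer form TCACGTG, read on either strand and overlapping the E-box, which 3.13% of all windows hold. The letters AGATAA, a form of the site of GATA factors, occur in none of the windows of the 10 genes on either strand, and in 9.99% of all windows. TGATGNAA, a form of the amino acid response element, occurs in none of the 10 either, and in 3.45% of all. These matches are letters in a window and say nothing of binding in these cells.

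Among the 10 genes the clearest pattern lay in Rragd, which was 2.69-fold lower in the Polg mutant cells, while its paralogs Rraga, Rragb and Rragc differed by 0.16 log2 units or less. Nprl3 and Depdc5 of GATOR1 and Fnip2 of the folliculin group were lower by smaller amounts, and Nprl2 of GATOR1 was higher. In 4 genes all Polg mutant arrays were below both WT arrays, which was the case for 9.73% of all genes. In 2 genes all of them were above both, against 8.36% of all genes, and the other 4 overlapped. The genes were chosen with this contrast known, so nothing is read from these counts. With limma, 0% of the 22180 genes tested passed an adjusted p of 0.05, so none of the 10 was called, where 1183 genes were lower and 927 higher at an unadjusted p under 0.05. The median difference was 0.00 over the 10 genes and 0.00 over all genes.

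**Figure D1:**
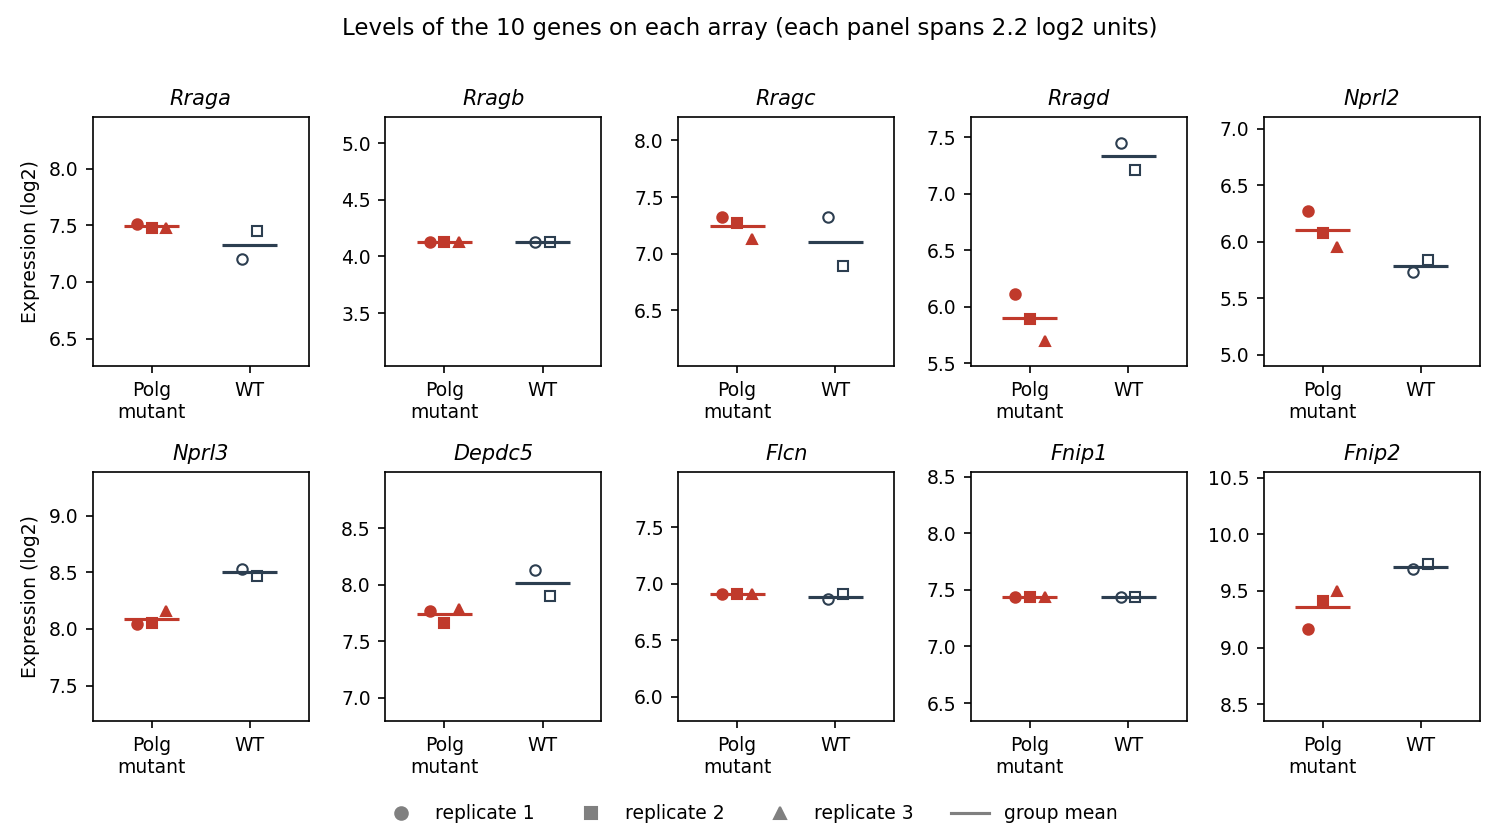
Log2 expression of each of the 10 genes on the 3 Polg mutant arrays (filled, left) and the 2 WT arrays (open, right), with group means as lines and each panel on its own axis of equal span. Rragd shows a wide gap between the groups, and Rragb and Fnip1 are flat.

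RagC and RagD are the folliculin-regulated subunits of the Rag dimer. Rragd read 6.11, 5.89 and 5.70 on the Polg mutant arrays, against 7.45 and 7.21 on the WT arrays. All 3 Polg mutant arrays were low, and the gap of 1.09 between the highest of them and the lower WT array exceeded the range within either group, 0.42 in the Polg mutant and 0.24 in WT. The means were 5.90 ± 0.21 in the Polg mutant (SD, n = 3) and 7.33 ± 0.17 in WT (SD, n = 2), a difference of -1.43 ± 0.16 (SE, limma). Each of the 6 pairs of a Polg mutant and a WT array gave a difference between -1.75 and -1.09, and leaving out 1 array at a time gave -1.55 to -1.30. Only 14 of the 22180 genes, Rragd included, had a difference this far below 0, which is 0.06% of them. The 8 erythroid markers differed by -0.65 (Epor) to -0.12. Among markers of other cell types, named after their values were seen, the megakaryocyte gene Gp9 differed by -1.36 and the B cell gene Igll1 by -1.15. Each was the lowest of its list. The median was -0.13 over the 6 measured megakaryocyte markers and -0.29 over the 7 measured B cell markers. Gp9 read 8.84, 9.23 and 9.11 on the Polg mutant arrays and 10.42 and 10.41 on the WT arrays. Its groups, like those of Rragd, did not overlap, while those of Igll1 did. The part of other cell types' transcripts in the difference of Rragd was not tested. Polg mutant replicate 3 and WT replicate 2, the arrays with the lowest neutrophil means, read 5.70 and 7.21 for Rragd. Their megakaryocyte marker means were 6.47 and 7.37, so this pair, with 1 array per group, was not matched for other cell types.

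Rragc read 7.32, 7.27 and 7.13 on the Polg mutant arrays and 7.32 and 6.89 on the WT arrays. The groups overlapped, and the WT arrays lay further apart than the Polg mutant arrays. The difference was 0.14 ± 0.16 (SE, limma), and it took the other sign, -0.08, without WT replicate 2 and was 0.36 without WT replicate 1.

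RagA and RagB are the subunits on which GATOR1 acts. Rraga read 7.51, 7.48 and 7.48 on the Polg mutant arrays and 7.20 and 7.45 on the WT arrays. The Polg mutant arrays lay above both WT arrays, by as little as 0.03 above WT replicate 2. The difference of 0.16 ± 0.09 (SE, limma) was 0.29 without WT replicate 2 and 0.04 without WT replicate 1. Rragb had the same deposited value, 4.13, on all 5 arrays. A value shared by all arrays occurred in 5.11% of genes and says little about whether the RNA differed.

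Set against its paralogs, Rragd was lower by 1.53 log2 units than the mean difference of Rraga, Rragb and Rragc. Relative to each gene's WT mean, this contrast was -1.35, -1.54 and -1.69 on the Polg mutant arrays and 0.09 and -0.09 on the WT arrays. The 2 groups of values did not overlap. The SD was 0.17 over the Polg mutant arrays (n = 3) and 0.13 over the WT arrays (n = 2). The mean of the paralogs alone was 0.13, 0.11 and 0.06 on the Polg mutant arrays and 0.03 and -0.03 on the WT arrays.

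**Figure D2:**
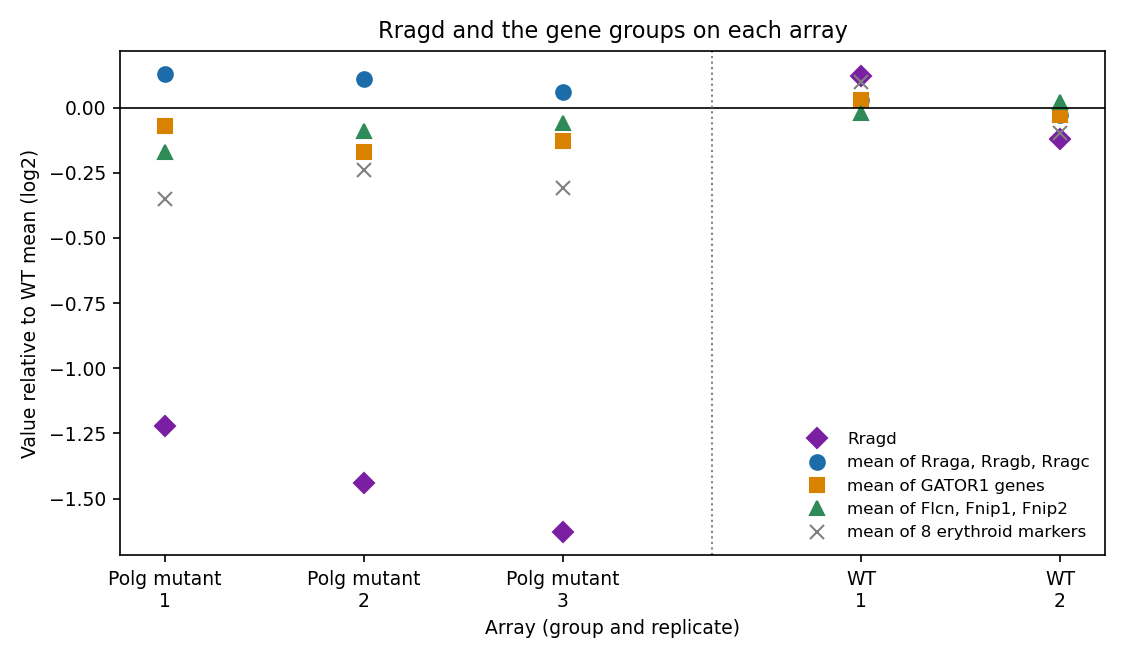
Log2 values on each array relative to the WT mean, for Rragd and for the means of its 3 paralogs, the 3 GATOR1 genes, the 3 folliculin-group genes and the 8 erythroid markers, with Polg mutant arrays left of the dotted line and WT arrays right of it. Rragd lies apart on all 3 Polg mutant arrays. The means of the paralogs, of GATOR1 and of the folliculin group stay between -0.17 and 0.13. The erythroid marker mean is lower on all 3 Polg mutant arrays than on both WT arrays.

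The GATOR1 genes did not move together. Nprl3, a structural subunit of GATOR1, read 8.04, 8.05 and 8.16 on the Polg mutant arrays, against 8.53 and 8.47 on the WT arrays. The arrays of each group lay close together, within 0.11 in the Polg mutant and 0.06 in WT, and a gap of 0.31 separated the groups. The means were 8.08 ± 0.06 in the Polg mutant (SD, n = 3) and 8.50 ± 0.05 in WT (SD, n = 2), a difference of -0.42 ± 0.05 (SE, limma) or a 1.34-fold lower level. The difference of Nprl3 lay within the range of the erythroid markers, -0.65 to -0.12, as did those of Depdc5 and Fnip2 given below. Whether a change in the share or stage of erythroid cells took part in these differences was not tested. Of all genes, 3.37% had a difference as low as that of Nprl3 or lower.

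Depdc5, a GATOR1 subunit that contacts the Rag dimer, read 7.77, 7.66 and 7.79 on the Polg mutant arrays, against 8.13 and 7.90 on the WT arrays. The Polg mutant arrays lay below both WT arrays, by 0.11 from the nearer one. The difference of -0.27 ± 0.09 (SE, limma) was -0.16 without WT replicate 1 and -0.39 without WT replicate 2. Nprl2, the subunit that carries the catalytic residue of GATOR1, went the other way, at 6.27, 6.08 and 5.95 on the Polg mutant arrays against 5.73 and 5.84 on the WT arrays. All Polg mutant arrays lay above both WT arrays, by 0.11 at the nearest, and the difference was 0.32 ± 0.11 (SE, limma).

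Folliculin and FNIP1 gave flat readings. Flcn, the gene of folliculin, had the value 6.91 on all 3 Polg mutant arrays and on WT replicate 2, and 6.86 on WT replicate 1. Fnip1 read 7.44 on all 5 arrays. Fnip2, whose product also binds folliculin, read 9.16, 9.41 and 9.50 on the Polg mutant arrays, against 9.69 and 9.74 on the WT arrays. All Polg mutant arrays lay below both WT arrays, with a gap of 0.18 and a range of 0.34 among the Polg mutant arrays. The means were 9.36 ± 0.18 in the Polg mutant (SD, n = 3) and 9.71 ± 0.04 in WT (SD, n = 2), a difference of -0.35 ± 0.12 (SE, limma).

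**Figure D3:**
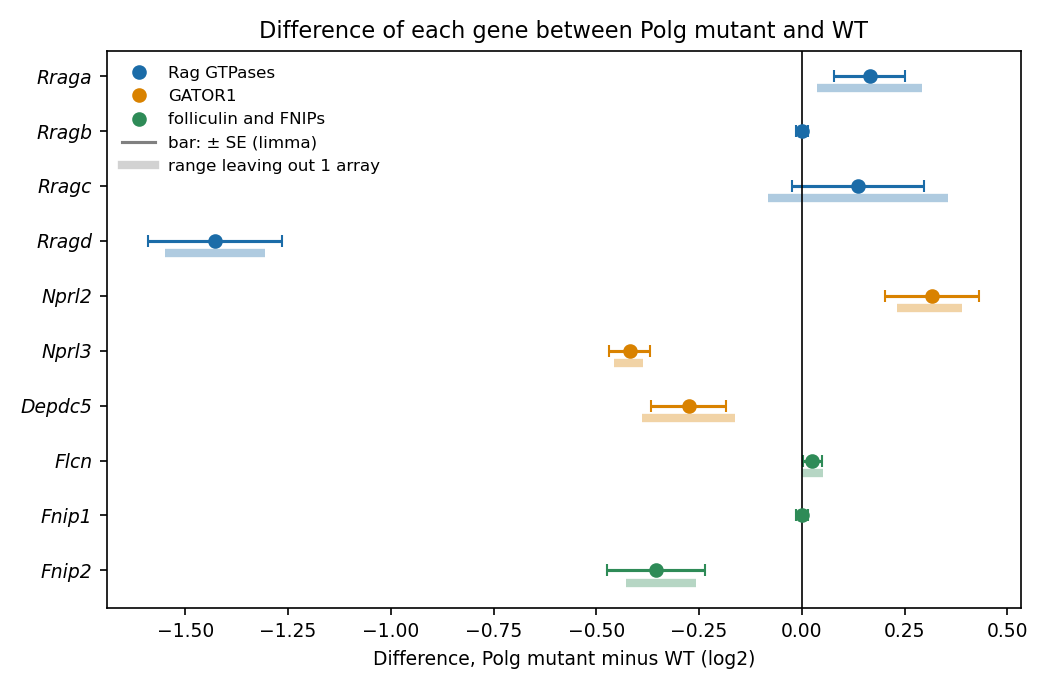
Difference between Polg mutant and WT on the log2 scale for each of the 10 genes, as points with the SE of limma, and the range of the same difference when 1 array at a time is left out, as pale bars. Rragd stands at -1.43, and the other 9 genes lie between -0.42 and 0.32.

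GATOR1 and the folliculin group did not separate as groups. Their mean differences were -0.13 over the 3 GATOR1 genes and -0.11 over Flcn, Fnip1 and Fnip2, and GATOR1 minus the folliculin group came to -0.02. On single arrays this contrast was 0.10, -0.08 and -0.07 in the Polg mutant and 0.05 and -0.05 in WT. The values of the groups overlapped, and the contrast was smaller than the SD over arrays of either group, 0.10 in the Polg mutant and 0.07 in WT.

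Other genes of amino acid sensing upstream and downstream of the Rag GTPases were taken from a list of 37, of which 34 were measured. With limma 0 of the 34 passed the threshold in either direction over all genes (smallest adjusted p = 0.236). An unadjusted p under 0.05 was reached by 5 higher genes, Kptn, Sesn2, Lamtor4, Eif4ebp1 and Eif4ebp2, and by 1 lower gene, Tsc1, where 4.18% of all genes were higher and 5.33% lower at that level. The median difference of the list was 0.02.

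Sesn2, the leucine sensor that restrains GATOR2, was 9.27, 8.86 and 8.98 on the Polg mutant arrays and 8.30 and 7.46 on the WT arrays, a difference of 1.15 ± 0.31 (SE, limma adjusted p = 0.397). The WT arrays lay farther apart than the Polg mutant arrays, while all Polg mutant arrays lay above both. Castor2, an arginine sensor relative, differed by 0.05 ± 0.05. Eif4ebp2, which encodes a translation repressor that mTORC1 inactivates, read 10.25, 10.10 and 10.18 on the Polg mutant arrays and 9.77 and 9.81 on the WT arrays, a difference of 0.38 ± 0.05 (SE, limma adjusted p = 0.236). Its paralog Eif4ebp1, named after its values were seen, differed by 0.91 ± 0.15 (SE, limma adjusted p = 0.249). Ulk1, the autophagy kinase that mTORC1 inhibits, differed by 0.03 ± 0.06.

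In the complexes that join these signals the differences were small. In the Ragulator, which anchors the Rag dimer to the lysosome, Lamtor4 differed by 0.26 ± 0.07 and Lamtor3 by -0.08 ± 0.12. In GATOR2, the inhibitor of GATOR1, Wdr59 differed by -0.10 ± 0.05 and Seh1l by 0.01 ± 0.08. In KICSTOR, the scaffold of GATOR1, Kptn differed by 0.10 ± 0.03 and Itfg2 by 0.01 ± 0.02. Mtor, the kinase itself, differed by -0.12 ± 0.07 and Rptor, the subunit that the Rag dimer binds, by -0.01 ± 0.17. Tsc1, part of the complex that shuts off the mTORC1 activator Rheb, differed by -0.31 ± 0.11 and Rheb by -0.06 ± 0.12. Each of these values is a log2 difference with its SE by limma.

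**Figure D4:**
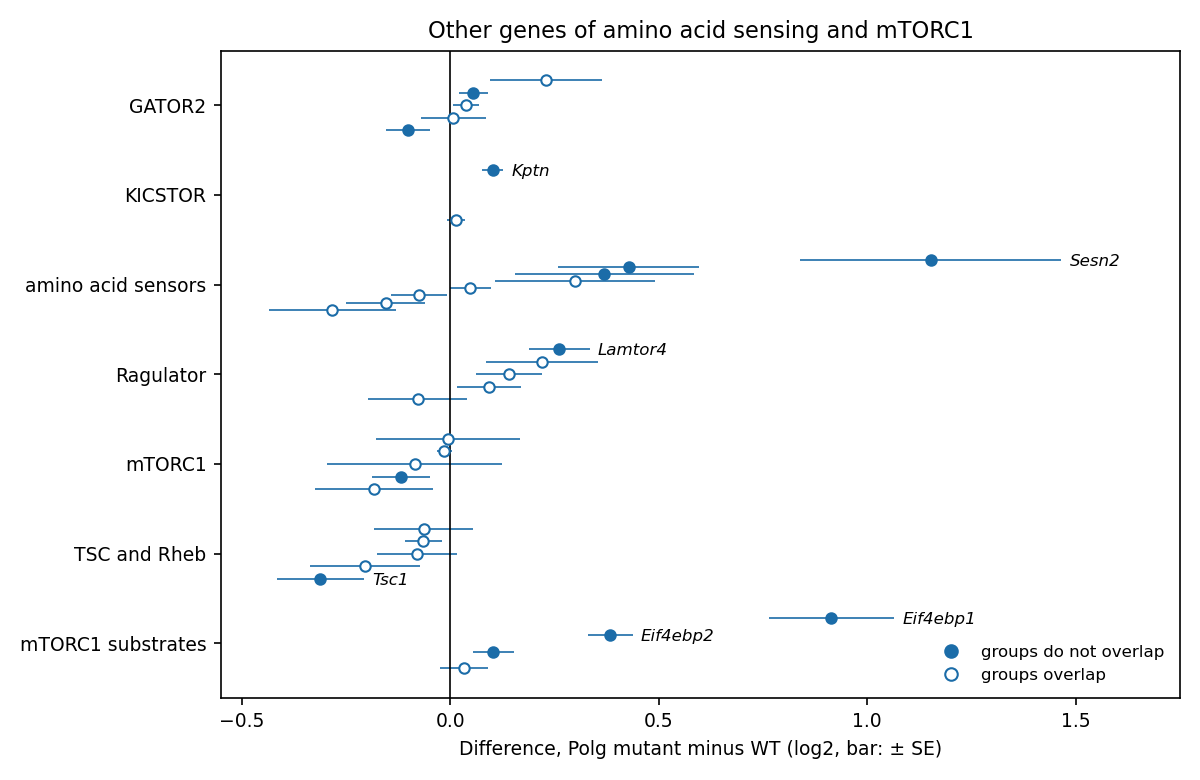
Log2 difference between Polg mutant and WT with its SE for the 34 measured genes of amino acid sensing and mTORC1 other than the 10 described above, by complex. Filled points are genes whose groups do not overlap, and the farthest points from 0 are Sesn2 at 1.15 and Eif4ebp1 at 0.91.

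Rragd is known as a target gene of the MiT/TFE family, the lysosomal transcription factors that folliculin restrains, so those factors and a list of their known targets were read beside it. Tfeb differed by -0.06 ± 0.04, Tfe3 by 0.17 ± 0.11 and Mitf by 0.05 ± 0.18 (SE, limma), with overlapping groups in each. Tfec, another factor of the family, named after its values were seen, differed by 0.12 ± 0.33. Of 23 listed targets 20 were measured, and 0 passed with limma over all genes, while 2 higher and 2 lower genes had an unadjusted p under 0.05, against 4.18% and 5.33% of all genes. Their median difference was 0.09, and all lay between -0.38 and 0.43. Ctsb, the gene of the lysosomal protease cathepsin B, read 12.12, 12.26 and 12.13 on the Polg mutant arrays and 12.57 and 12.53 on the WT arrays, a difference of -0.38 ± 0.06. Wipi1, an autophagy gene, differed by -0.22 ± 0.04, and the autophagy receptor gene Sqstm1 by 0.43 ± 0.10. The difference of Rragd, -1.43, lay outside that range, but Rragd was chosen with its difference known, so this is only a description. A part of these factors in the difference of Rragd was not tested.

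Introns of Nprl3 hold the enhancers of the alpha-globin genes, which lie next to it, so its neighbours were read as well. Of 9 listed neighbours 6 were measured, and with limma 0 of these passed over all genes. The adult alpha-globin genes Hba-a1 and Hba-a2, and Mpg, were not measured. Snrnp25, a spliceosome gene, differed by -0.23 ± 0.09, and its Polg mutant arrays lay below both WT arrays. Rhbdf1 differed by -0.11 ± 0.09, Il9r by 0.12 ± 0.13 and the embryonic globin gene Hba-x by 0.09 ± 0.14, with overlapping groups in all 3. The theta-globin genes Hbq1a and Hbq1b differed by -0.74 ± 0.38 and -0.29 ± 0.14, and as near-identical copies they may share probes. Hbq1a read 10.98 on WT replicate 2, against 9.90 on WT replicate 1 and 9.51 to 9.82 on the Polg mutant arrays.

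For Rragd and Nprl3 the genes of most similar pattern were found as the smallest Euclidean distance between values centred on each gene's mean over the 5 arrays. With 5 arrays many genes lie close, so the likeness is only a description. Nearest to Rragd were Znrd2 at a distance of 0.41 log2 units, Fsd1l at 0.49, Capn5 at 0.51, Parp16 at 0.52 and Fn3k at 0.53, with differences from -1.46 to -1.01. Nearest to Nprl3 were Ago2 at 0.05, Llgl1 at 0.05, Dedd2 at 0.06, Spef1 at 0.06 and the membrane skeleton gene Add1 at 0.06, with differences from -0.44 to -0.40.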

How the data were processed

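The deposited table holds the authors' log2 expression of 41345 probe sets on 5 arrays, with no pooling. Per the submitters' processing notes, RMA and Partek 6.5 are named with no role, and no build or probe annotation is named. The range of the values showed the log2 scale, and they were used unchanged. Gene symbols came from GEO's platform annotation, in which 23521 carry 1 symbol, 1814 several and 16010 none, and the brightest single-symbol probe set per gene gave 22180 genes.

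Polg mutant and WT arrays were compared by limma (version 3.58.1, R version 4.3.3; genotype as the single term, moderated variance, two-sided, Benjamini-Hochberg over all genes, adjusted p under 0.05). The fit was tested on simulated data drawn without tied values, so that test does not cover values shared between arrays. An exact permutation test of 1 gene cannot go below p = 0.1 here. Of the genes, 67.9% share an exact value between at least 2 arrays. Alternatives covered scaling, dim genes, probe sets, moderation, replicate block and left-out arrays, and, added after the ties were seen, untied genes only. The 10 genes and all lists were chosen with earlier results of these data known. Named from the lists were the genes of smallest and of largest p in each complex, Tfeb, Tfe3 and Mitf with the 3 targets of smallest p, all neighbours of Nprl3 and the 5 nearest patterns. The number of arrays limits the precision.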

Additional observations from a re-analysis of the deposited data

How the results depend on the processing

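The differences of Rragd (-1.55 to -1.30), Nprl3, Depdc5, Fnip2, Nprl2 and Rraga kept their sign under renewed quantile normalization, median centring and each left-out array, and Rragc in all of these but that without WT replicate 2. Averaging probe sets and the filter on dim genes could not change these values, and the replicate block gives the same value as leaving out Polg mutant replicate 3. Rragd minus its paralogs ranged from -1.62 to -1.44 when 1 array was left out, and was -1.58 without Rragb, which the filter on dim genes removes. GATOR1 minus the folliculin group ranged from -0.08 to 0.03, changing sign. With limma the count of genes past the threshold was 0 of 22180. It was 9 after renewed quantile normalization and 11 when genes had to exceed a log2 of 6 on 2 or more arrays. None of the 10 genes was among these. Among the 7112 untied genes the count was 114, or 1.6%, and these included Rragd (limma adjusted p = 0.0258). Of the 10 genes 6 were untied, and no other was called. That filter is not independent of the differences, and Rragd was chosen with its difference known. Leaving out 1 array gave 0 to 1781 genes, the highest being 1781 (WT replicate 1 left out) and 924 (WT replicate 2 left out), and 0 to 3 listed nutrient-sensing genes, 2 and 3 without these WT arrays. Fits without a WT array take the spread of the lone WT array from the Polg mutant arrays. Whether the replicate numbers pair the arrays was not settled. Deviations of same-numbered arrays correlated at 0.19 for number 1 and -0.20 for number 2 across genes. The deviations of the 2 WT arrays are mirror images of each other, so these correlations cannot decide it. With the replicate block the count stayed at 0 genes, and Rragd minus its paralogs was -1.44.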
